A study of Mus musculus with 6 samples.

Results

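The genes described here are the receptors through which cells receive Wnt signals: 8 Frizzled genes, Fzd1 to Fzd8, and the co-receptor genes Lrp5 and Lrp6. They were taken by symbol, all 10 were found among the 53927 symbols of the count tables, and none lies on the X or Y chromosome. RNA was sequenced from cells labelled as wild-type mouse embryonic stem cells (ESCs), 3 libraries from BRD0705/PD03 medium and 3 from 2i medium. Both media were serum-free N2B27 with the MEK inhibitor PD0325901 at 1 µM. BRD0705/PD03 added BRD0705, a selective inhibitor of the kinase GSK3 alpha, at 8 µM, and 2i added CHIR99021, which inhibits GSK3 alpha and GSK3 beta, at 3 µM. The labels name the line E14 but the growth protocol speaks of B6D2F1 ESCs, with a derivation on feeders described for each medium, so medium and derivation cannot be told apart. Nothing says that the libraries are separate cultures, and p-values therefore measure the spread between libraries, which may be technical.

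As background, a secreted Wnt protein binds the cysteine-rich domain of a Frizzled, a receptor with a bundle of membrane-spanning helices, and at the same time Lrp5 or Lrp6, which cross the membrane once. The joined receptors gather Dishevelled and Axin at the membrane, GSK3 phosphorylates proline-rich motifs in the tail of Lrp5 and Lrp6, and beta-catenin escapes destruction. Inhibitors of both GSK3 alpha and GSK3 beta stabilise beta-catenin downstream of these receptors, and Frizzled proteins also feed pathways that do not use beta-catenin.

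Libraries held 31855685, 27825601 and 40790837 counts in BRD0705/PD03 and 16968959, 51180228 and 25026571 in 2i. The groups differed broadly. Of 20422 genes tested, 61.4% were called at an adjusted p under 0.05, 30.1% as higher and 31.4% as lower in BRD0705/PD03, and for 66% every library of one group lay above every library of the other. Expressed X-linked genes had a median log2 fold change of -0.80, with 410 of 566 called lower and 83 higher. Of 10 ESC markers, 4 were higher and 5 lower (median -0.10), and their summed level was 2934 to 3036 CPM in BRD0705/PD03 and 3779 to 4071 CPM in 2i, CPM being counts scaled to the effective size of each library. Of 18 fibroblast markers, which would report on feeder cells, 16 were higher and 0 lower, with a median of 0.93. Their summed level was 1084, 1435 and 1623 CPM in the BRD0705/PD03 libraries and 646, 650 and 623 CPM in the 2i libraries, and no marker was at 0 in any library. In such bulk samples, fewer cells of a type and less RNA per cell cannot be told apart. The sums of endoderm markers (2 of 6 tested higher, 1 lower) and trophoblast markers (1 of 4 higher, 1 lower) overlapped between the groups. Such sums rest mainly on abundant genes. Tfap2c made up most of the trophoblast sum (42.9 CPM in BRD0705/PD03, 36.4 CPM in 2i), while Gata3 stood at 0.39 and 3.29 CPM. Pdgfra, the most abundant endoderm marker (3.36 and 2.35 CPM), is also on the fibroblast list. Markers of mesoderm and primitive streak (2 of 4 higher, 1 lower) summed to 9.0 to 9.47 CPM in BRD0705/PD03 and 6.36 to 8.52 CPM in 2i, and neural markers (2 of 4 higher, 1 lower) to 50.4 to 53.9 and 24.7 to 29.0 CPM. Most of the neural sum was Nes (36.8 CPM in BRD0705/PD03, 24.3 CPM in 2i), while Pax6 stood at 13.1 and 0.363 CPM. The part of these other cell types and of the X-linked difference in the results was not tested, apart from the fibroblast markers as given below.

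The members fall into kinds by sequence, and their motifs are shown first because the results are ordered by these kinds. By translated GENCODE M21 coding sequences (GRCm38), Fzd1, Fzd2 and Fzd7 are the closest relatives, with 80.5% identical residues between Fzd1 and Fzd2, 79.9% between Fzd1 and Fzd7 and 78.6% between Fzd2 and Fzd7. Fzd5 and Fzd8 share 70.6%, Lrp5 and Lrp6 share 68.9%, and Fzd3 and Fzd6 share 52.3%. Every Frizzled member carries 1 copy of the cytoplasmic motif by which Frizzled proteins bind Dishevelled, a lysine and a threonine followed after 3 residues by a tryptophan. Its codons are in capitals, with 6 bases on each side; the sequence of Fzd8 is not shown.
Fzd1: tccggcAAGACACTGAATTCCTGGaggaag
Fzd2: tccggcAAGACACTGCACTCGTGGaggaag
Fzd7: tcgggcAAGACCCTGCAGTCATGGcgtcgc
Fzd5: tccggcAAGACTCTGGAGTCTTGGcggcgg
Fzd4: tctgccAAAACTCTTCACACGTGGcaaaag
Fzd3: agcaaaAAGACATGCTTTGAATGGgccagt
Fzd6: agcaaaAAGACGTGCACAGAATGGgccggg
The motif ends 17 residues before the end of the protein in Fzd1, Fzd2 and Fzd7. The tail after it is longer in the others, at 55 residues in Fzd5, 74 in Fzd8, 33 in Fzd4, 159 in Fzd3 and 206 in Fzd6. The exact run of 3 prolines, serine and proline, the core of the motifs that GSK3 phosphorylates in the co-receptors, occurs 2 times in Lrp5 and 2 times in Lrp6. Other forms of the motif, such as those with threonine for serine, are not in this count. The codons of the copies nearer the membrane are in capitals here, and they encode a target of the kinase family that both media inhibit.
Lrp5: aacCCACCCCCGTCCCCGgccaca
Lrp6: aacCCACCACCATCGCCTgccaca

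Close relatives can share reads, so the overlap of their transcripts was measured. The longest run that the coding sequences of Fzd7 and Fzd2 have in common is 38 bases, from base 1339 to base 1376 of the Fzd7 coding sequence.
Fzd7 and Fzd2: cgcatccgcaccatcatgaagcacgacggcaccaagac
Of the distinct 31-base words in Fzd7 transcripts, 0.777% also occur in another gene, 21 of 4502 of them in Fzd2 and 19 in Fzd1. The share is 1.90% for Fzd2 and 1.61% for Fzd1, so nearly all of each transcript is its own. Fzd5 stands apart with 17.2%, almost all of it in Gm38058, an unnamed gene model annotated on the other strand of the same locus. Gm38058 held 0.565 ± 0.226 CPM in BRD0705/PD03 and 0.178 ± 0.0189 CPM in 2i (SD, n = 3 each), against 68.3 and 67.2 CPM for Fzd5. Whether the counting used strand is not stated in the labels, and reads of that pair cannot be told apart.

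Across the 10 members, all of which passed the filter on low counts, 5 were higher in BRD0705/PD03, 2 were lower and 3 were not called. The 70% of members called stands close to the 61.4% of all genes, and the 7 of 10 members whose groups did not overlap close to the 66% of all genes. The median log2 fold change was 0.26 over the members and 0.00 over all genes tested. Fzd7 and Fzd2 changed by more than 2-fold, which 21.2% of all genes did (10.9% as higher). A log2 fold change as high as that of Fzd2 or higher was found in 3.43% of genes, and as high as that of Fzd7 in 2.38%.

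**Figure D1:**
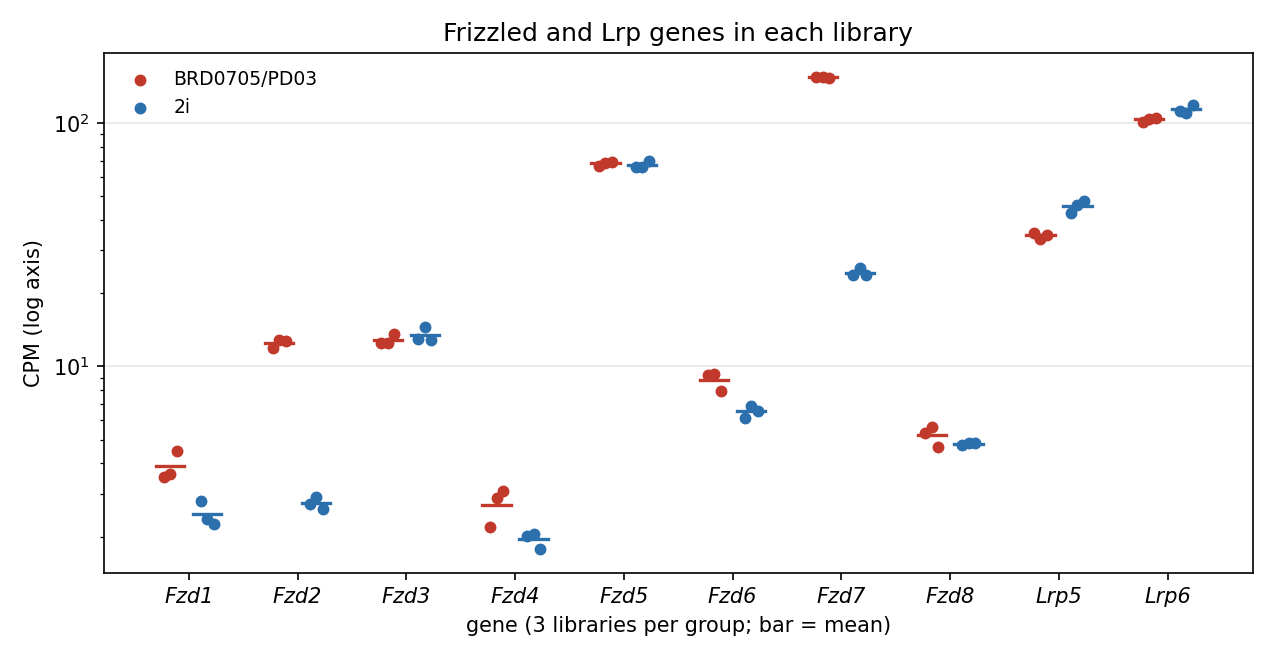
Level of each member in every library, in CPM on a log axis, with BRD0705/PD03 in red left of 2i in blue, 3 points in each group and a bar at the mean. Fzd7 and Fzd2 stand far apart between the groups, while the points of Fzd3, Fzd5 and Fzd8 overlap.

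Fzd7 (chromosome 1, 59482424 to 59486955, plus strand, a gene of a single exon) is the Frizzled best known from pluripotent stem cells. Its level was 155, 154 and 153 CPM in the BRD0705/PD03 libraries and 23.8, 25.3 and 23.8 CPM in the 2i libraries, from 4237 to 6231 counts and from 401 to 1268 counts. Every BRD0705/PD03 library lay far above every 2i library, and the libraries of a group hardly differed. The means were 154 ± 1.33 CPM and 24.3 ± 0.877 CPM (SD, n = 3 each), a ratio of 6.34 and a log2 fold change of 2.66 ± 0.05 (SE) with a 95% interval of 2.56 to 2.75 and an adjusted p of 6.2e-19 by edgeR. It was the member with the largest change.

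Fzd2 (chromosome 11, 102604396 to 102608058, plus strand), a close relative of Fzd7 that also acts in beta-catenin-independent Wnt signalling, moved the same way. It stood at 11.9, 12.9 and 12.7 CPM in BRD0705/PD03 and 2.73, 2.91 and 2.60 CPM in 2i. The groups were separated without overlap, on 354 to 518 counts against 46 to 146. The log2 fold change was 2.17 ± 0.10 (95% interval 1.95 to 2.39, adjusted p = 1.5e-12), a ratio of means of 4.55.

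Fzd1 (chromosome 5, 4753839 to 4758035, minus strand), the third of these relatives, was higher by less. Its level was 3.51, 3.63 and 4.51 CPM in BRD0705/PD03 and 2.79, 2.37 and 2.25 CPM in 2i, so the groups did not overlap but the third BRD0705/PD03 library stood well above its fellows. The log2 fold change was 0.68 ± 0.16 (95% interval 0.34 to 1.01, adjusted p = 0.00111).

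**Figure D2:**
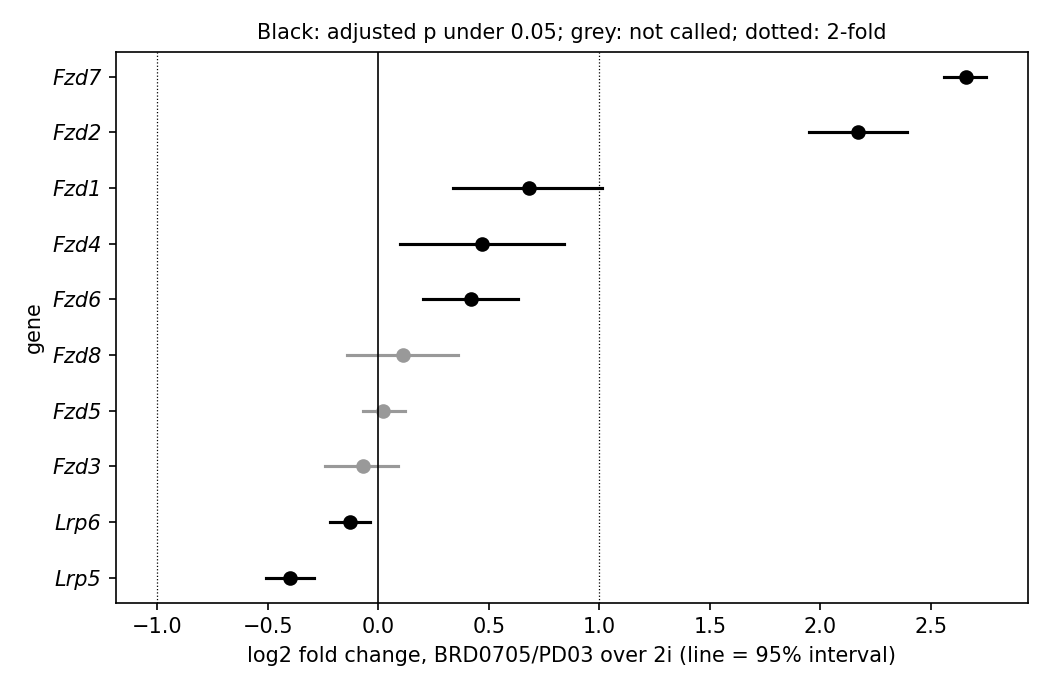
Log2 fold change of each member, BRD0705/PD03 over 2i, as a point with its 95% interval, ordered from the highest at the top; black marks an adjusted p under 0.05 and dotted lines mark 2-fold. Fzd7 at 2.66 and Fzd2 at 2.17 lie beyond 2-fold, and Lrp5 at -0.40 is the lowest.

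Fzd4 and Fzd6 were also higher by small margins. Fzd4 (chromosome 7, 89404355 to 89413134, plus strand), which besides Wnt proteins binds norrin, the vessel growth factor of the retina, stood at 2.19, 2.87 and 3.07 CPM in BRD0705/PD03 and 2.02, 2.05 and 1.78 CPM in 2i. Its lowest BRD0705/PD03 library nearly met its highest 2i library, and the log2 fold change of 0.47 ± 0.18 (adjusted p = 0.0282) rests on 34 to 125 counts per library. The call was lost without BRD0705/PD03 replicate 2 (adjusted p = 0.0839) or 3 (0.14), without 2i replicate 3 (0.0804), and by DESeq2 (0.1). Fzd6 (chromosome 15, 39006034 to 39038188, plus strand), a receptor of planar cell polarity known for hair patterning in mice, stood at 9.24, 9.30 and 7.95 CPM in BRD0705/PD03 and 6.17, 6.90 and 6.55 CPM in 2i. Those groups did not overlap, with a log2 fold change of 0.42 ± 0.10 (adjusted p = 0.00153).

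Fzd5, Fzd3 and Fzd8 were not called. Fzd5 (chromosome 1, 64730558 to 64737751, minus strand), a receptor required for the mouse yolk sac vessels, stood at 66.8, 68.7 and 69.4 CPM in BRD0705/PD03 and 66.1, 65.8 and 69.9 CPM in 2i. The ranges overlapped, and the 95% interval of its log2 fold change ran from -0.07 to 0.12. Fzd3 (chromosome 14, 65192449 to 65262463, minus strand), which guides growing axons in mice, stood at 12.5, 12.5 and 13.6 CPM in BRD0705/PD03 and 13, 14.5 and 12.9 CPM in 2i (log2 fold change -0.07, interval -0.24 to 0.09, adjusted p = 0.446). Fzd8 on chromosome 18, the nearest relative of Fzd5, stood at 5.33, 5.63 and 4.66 CPM in BRD0705/PD03 and 4.75, 4.83 and 4.85 CPM in 2i (0.11, interval -0.14 to 0.36, adjusted p = 0.465). The ranges of the groups overlapped for both genes.

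The co-receptors went the other way from Fzd7. Lrp5 (chromosome 19, 3584828 to 3686564, minus strand), known for its role in bone mass, stood at 35.3, 33.5 and 34.8 CPM in BRD0705/PD03 and 42.7, 45.9 and 47.8 CPM in 2i. All 3 BRD0705/PD03 libraries lay below the lowest 2i library, and the log2 fold change was -0.40 ± 0.05 (interval -0.51 to -0.29, adjusted p = 2.9e-06). Lrp6 (chromosome 6, 134446476 to 134566965, minus strand), a co-receptor that mouse embryos need for normal axis formation, stood at 101, 104 and 105 CPM in BRD0705/PD03 and 112, 110 and 119 CPM in 2i. It was lower by a narrow margin, at -0.13 ± 0.04 (interval -0.22 to -0.04, adjusted p = 0.0118). That call was lost with upper-quartile factors (-0.07, adjusted p = 0.157) and without a filter on low counts (-0.11, adjusted p = 0.0807).

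Levels can be compared between genes only per length, so CPM were divided by the kilobases of exons of each gene. On that scale Fzd7 was the highest member in BRD0705/PD03, at 34.0 ± 0.294 CPM per kilobase, followed by Fzd5 at 9.88 ± 0.196, Lrp6 at 7.55 ± 0.165, Lrp5 at 3.55 ± 0.0954 and Fzd2 at 3.41 ± 0.136. In 2i, Fzd5 led at 9.72 ± 0.337, followed by Lrp6 at 8.28 ± 0.344, Fzd7 at 5.36 ± 0.193 and Lrp5 at 4.67 ± 0.264, and Fzd2 came eighth at 0.750 ± 0.0423 CPM per kilobase. Per kilobase of the longest transcript instead, Lrp6 stood above Fzd5 without overlap in both media, at 11 ± 0.241 in BRD0705/PD03 and 12.1 ± 0.502 CPM per kilobase in 2i, so their order depends on the length used. By either length Fzd7 led in BRD0705/PD03 and stood below Fzd5 and Lrp6 in 2i. The remaining members had 0.403 (Fzd4) to 1.83 (Fzd6) CPM per kilobase in BRD0705/PD03 and 0.290 (Fzd4) to 1.36 (Fzd6) in 2i. Neighbours in the order whose 3 libraries overlapped were Lrp5 and Fzd2, Fzd3 and Fzd1, and Fzd1 and Fzd8 in BRD0705/PD03, and Fzd8 and Fzd2 in 2i. By the longest transcript, Lrp5 and Fzd2 no longer overlapped in BRD0705/PD03, while Fzd7 and Lrp5 did in 2i.

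The 8 Frizzled members together reached 52.2, 52.5 and 52.2 CPM per kilobase in BRD0705/PD03 and 19.6 to 20.1 in 2i, a ratio of 2.63. Fzd7 made up 65.8%, 64.6% and 64.5% of that sum in BRD0705/PD03 and 26.8%, 27.7% and 26.1% in 2i. Fzd5 made up 18.9 ± 0.348% in BRD0705/PD03 and 48.8 ± 1.61% in 2i, although its own level was nearly the same. Most Frizzled RNA was therefore Fzd7 in BRD0705/PD03, and Fzd5 held the largest share in 2i. Without Fzd7, the sum of the others was 18.3 ± 0.403 in BRD0705/PD03 and 14.6 ± 0.228 CPM per kilobase in 2i. Fzd1, Fzd2 and Fzd7 together gave 38.3 ± 0.0665 in BRD0705/PD03 and 6.70 ± 0.229 in 2i, and the other 5 Frizzled members 14.0 ± 0.222 and 13.2 ± 0.311 CPM per kilobase. Lrp5 and Lrp6 together gave 11.1 ± 0.16 in BRD0705/PD03 and 13 ± 0.547 in 2i, with 2.13 ± 0.085 and 1.78 ± 0.0831 times as much Lrp6 as Lrp5.

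**Figure D3:**
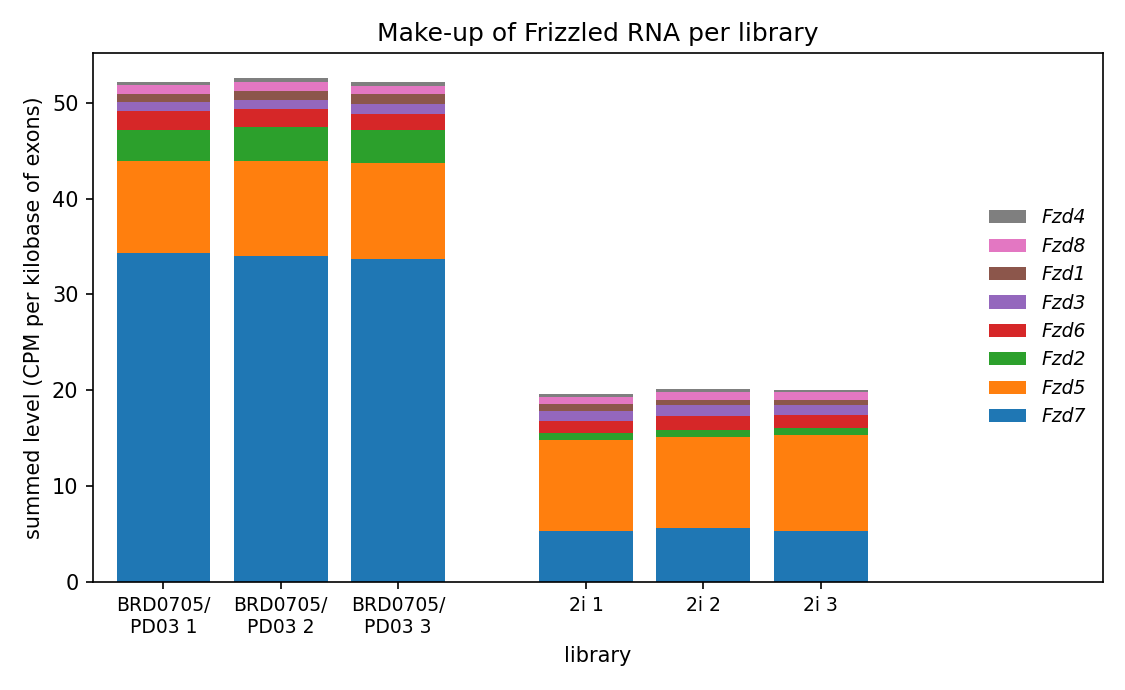
Summed level of the 8 Frizzled members in each library, in CPM per kilobase of exons, as stacked bars with the 3 BRD0705/PD03 libraries left of the 3 2i libraries. The bars reach about 52.3 in BRD0705/PD03 and 19.9 in 2i, and the segment of Fzd7 accounts for most of the gap while that of Fzd5 keeps its height.

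Promoters of Fzd7 and Fzd5, the leading Frizzled gene in each medium, are shown because one differed between the media and the other was not called. The RefSeq table (GRCm38.p6) held windows of 300 bases for 4 members, Fzd7, Fzd5, Fzd1 and Fzd4. The window of Fzd7, chr1:59481897-59482196 on the plus strand, and that of Fzd5, chr1:64737701-64738000 on the minus strand, read as follows.
Fzd7: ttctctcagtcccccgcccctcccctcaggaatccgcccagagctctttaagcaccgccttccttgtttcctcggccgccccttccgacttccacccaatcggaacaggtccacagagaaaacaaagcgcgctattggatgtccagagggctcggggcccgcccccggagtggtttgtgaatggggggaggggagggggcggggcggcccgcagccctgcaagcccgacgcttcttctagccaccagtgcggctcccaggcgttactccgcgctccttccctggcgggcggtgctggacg
Fzd5: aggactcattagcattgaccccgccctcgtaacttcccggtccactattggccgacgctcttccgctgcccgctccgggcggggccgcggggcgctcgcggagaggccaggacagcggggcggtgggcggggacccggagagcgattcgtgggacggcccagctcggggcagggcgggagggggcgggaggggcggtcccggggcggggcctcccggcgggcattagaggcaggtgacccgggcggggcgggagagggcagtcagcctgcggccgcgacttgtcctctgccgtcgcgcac
The Fzd7 window is 66.7% G and C with 24 CG dinucleotides and the Fzd5 window 75.7% with 38, against medians of 52.7% and 7 over all 32851 windows. The letters CTTTGAT and CTTTGAA, 2 of the forms to which TCF and LEF factors bind, were searched on both strands. They occurred in 0 of the 4 member windows and in 8.65% of all windows, which says only that these letters are not in these windows. Other forms, such as CTTTGTT, were not searched. The Fzd7 window above holds aacaaag, which is CTTTGTT on the other strand, and the share of all windows with that form was not counted.

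Fibroblast marker RNA was higher in BRD0705/PD03, and among its 3 libraries it was lowest in replicate 1 and highest in replicate 3, with mean log2 CPM of 4.33, 4.55 and 4.77, against 3.68, 3.68 and 3.64 in 2i. Fzd7 did not follow that order within BRD0705/PD03 (155, 154 and 153 CPM), and Fzd1 and Fzd4 were both highest in replicate 3. So were Fzd3 (12.5, 12.5 and 13.6 CPM) and Fzd5 (66.8, 68.7 and 69.4 CPM), which were not called. Lrp6, which was called lower in BRD0705/PD03, was also highest there (101, 104 and 105 CPM). Fzd2 was lowest in replicate 1 and highest in replicate 2 (11.9, 12.9 and 12.7 CPM), and Fzd6 was lowest in replicate 3 (9.24, 9.30 and 7.95 CPM). With the marker level as a covariate, the log2 fold change was 2.70 ± 0.14 for Fzd7 (adjusted p = 5.7e-11) and 1.98 ± 0.30 for Fzd2 (adjusted p = 7.6e-05). Both calls held. Fzd1 turned to -0.08 ± 0.49 (adjusted p = 0.941) and Fzd4 to -0.51 ± 0.56 (adjusted p = 0.594), and Fzd6 (0.84 ± 0.32, adjusted p = 0.0754), Lrp5 (-0.34 ± 0.19, adjusted p = 0.23) and Lrp6 (-0.23 ± 0.15, adjusted p = 0.324) lost their calls. Standard errors were 2.93 to 3.54 times larger in that fit, the marker level and the medium being closely tied in these libraries.

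**Figure D4:**
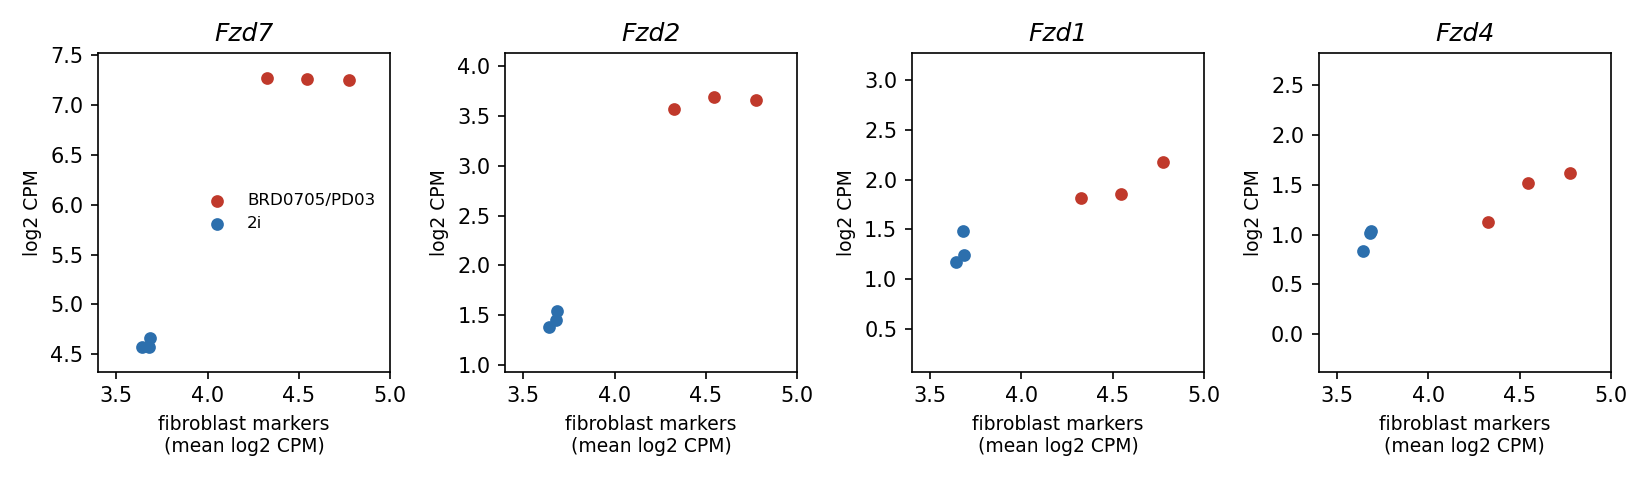
Log2 CPM of Fzd7, Fzd2, Fzd1 and Fzd4 against the mean log2 CPM of 18 fibroblast markers, 1 point per library, BRD0705/PD03 in red and 2i in blue, all panels spanning the same height on the log2 scale. Fzd7 and Fzd2 are nearly level over the 3 BRD0705/PD03 libraries, while Fzd1 and Fzd4 are highest where the markers are highest.

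Fzd9 and Fzd10, Frizzled genes outside the set of 10, are given for comparison. Fzd10 stood at 14.8, 15.3 and 14.7 CPM in BRD0705/PD03 and 14.2, 14.2 and 13.5 CPM in 2i, without a call (0.10 ± 0.07, adjusted p = 0.253), although it was called with upper-quartile factors (0.16, adjusted p = 0.0471). At 4.6 ± 0.103 in BRD0705/PD03 and 4.3 ± 0.135 CPM per kilobase in 2i it was more abundant than each Frizzled member but Fzd5 and Fzd7 in both media. Fzd9 was lower, at 0.678, 0.835 and 0.932 CPM in BRD0705/PD03 and 2.26, 2.61 and 3.24 CPM in 2i (-1.72 ± 0.21, adjusted p = 1.0e-06).

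Wnt receptors of other families changed in opposite directions. Ror1, a receptor tyrosine kinase-like protein that binds Wnt5a, stood at 22.9, 26.1 and 25.0 CPM in BRD0705/PD03 and 1.42, 1.18 and 1.07 CPM in 2i (4.36 ± 0.11, adjusted p = 1.2e-16). Its relative Ror2 stood at 4.01, 5.01 and 6.30 CPM in BRD0705/PD03 and 40.1, 39.1 and 39.0 CPM in 2i (-2.93 ± 0.12, adjusted p = 1.4e-08). Thus Ror1 was the more abundant of the pair in BRD0705/PD03 and Ror2 in 2i, also per kilobase (4.28 ± 0.284 and 1.2 ± 0.271 in BRD0705/PD03, 0.212 ± 0.0319 and 9.28 ± 0.14 in 2i). Ptk7 rose by 0.29 and Ryk fell by 0.19 on the log2 scale, and Musk was below the filter. The calls of Ptk7 (0.12, adjusted p = 0.627) and Ryk (-0.10, adjusted p = 0.743) were lost with the fibroblast marker covariate.

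**Figure D5:**
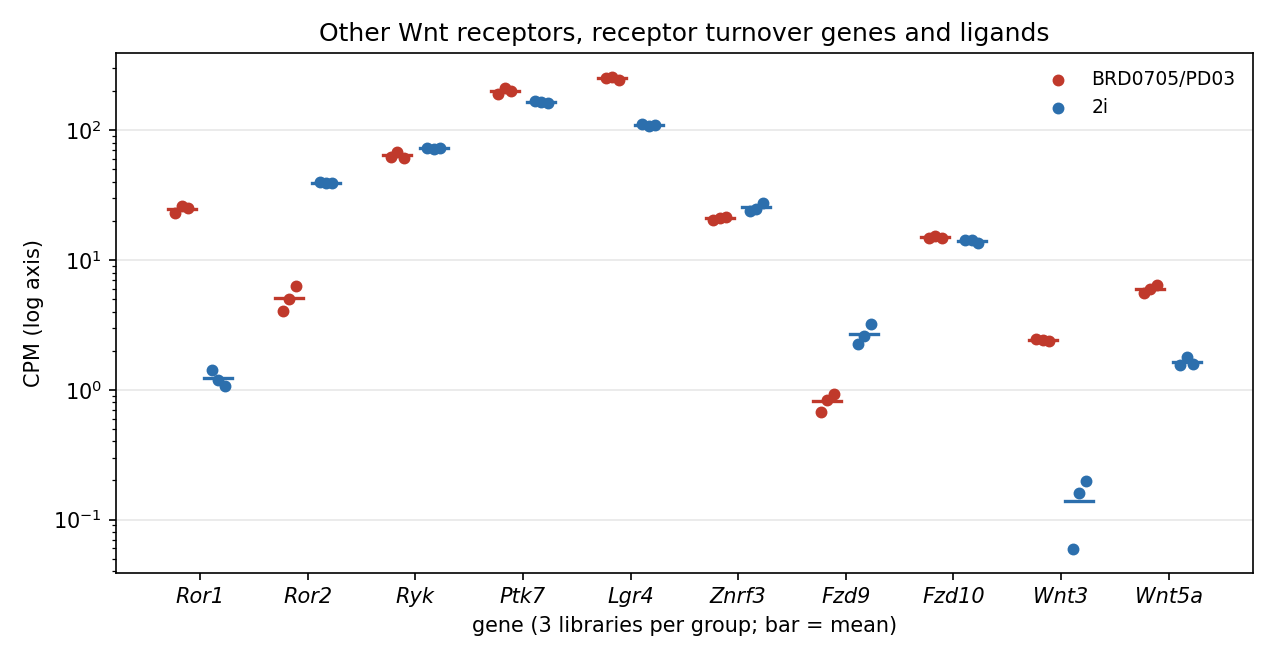
Level of 10 other genes of Wnt reception in every library, in CPM on a log axis, BRD0705/PD03 in red left of 2i in blue, with a bar at the mean of 3 libraries. Ror1 and Ror2 exchange places between the media, and Lgr4, Wnt3 and Wnt5a lie higher in BRD0705/PD03.

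Of 4 tested genes that set how much Frizzled stays at the cell surface, 1 was higher, 1 lower and 2 not called, a smaller share called than the 61.4% of all genes. Lgr4, a receptor for R-spondins that spares Frizzled proteins from removal, stood at 251, 259 and 244 CPM in BRD0705/PD03 and 112, 107 and 109 CPM in 2i (1.2 ± 0.04, adjusted p = 8.4e-15). Znrf3, a ubiquitin ligase that removes Frizzled and Lrp6 from the surface, was lower at 21 ± 0.457 CPM in BRD0705/PD03 against 25.4 ± 1.84 CPM in 2i (-0.28 ± 0.06). That call was lost with the covariate (-0.35, adjusted p = 0.321), though the estimate did not shrink. Rnf43 and Lgr6 were not called and Lgr5 was below the filter. Among proteins that fold or join the receptors, 5 of 10 were higher and 3 lower, with a median of 0.21. Mesd, the chaperone that Lrp5 and Lrp6 need to reach the surface, fell by 0.36 on the log2 scale (adjusted p = 4.9e-07). Tspan12, a partner of Fzd4 in norrin signalling, rose by 1.88. Tmem59 fell by 0.42 and the X-linked Atp6ap2 by 1.11.

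Of 19 Wnt ligand genes, 10 passed the filter, of which 6 were higher and 1 lower (median 0.69). Over all genes tested, 30.1% were higher and 31.4% lower. A gene high in 1 group can pass the filter through that group alone. Wnt3, with 1, 8 and 5 counts in the 2i libraries, and Wnt8a, with 3, 4 and 2, passed through BRD0705/PD03, and Wnt6 through 2i. The number of ligand calls and their median therefore partly reflect the filter. Wnt3, which patterns the early mouse embryo, stood at 2.41 ± 0.0455 CPM in BRD0705/PD03 and 0.139 ± 0.0713 CPM in 2i. Wnt5a, the classic ligand of Ror receptors, stood at 6.01 ± 0.436 CPM in BRD0705/PD03 and 1.63 ± 0.125 CPM in 2i. The 1 lower ligand gene was Wnt6, at 0.255 ± 0.17 CPM in BRD0705/PD03 and 1.32 ± 0.16 CPM in 2i (-2.27 ± 0.35, adjusted p = 1.6e-05 by edgeR). Wnt9a rose by 0.59 and Wnt4 by 0.48 on the log2 scale, calls that DESeq2 did not make (adjusted p = 0.0795 for Wnt9a and 0.0878 for Wnt4). The call of Wnt9a was also lost without BRD0705/PD03 replicate 3 or 2i replicate 1 (adjusted p = 0.0594 and 0.0546), and that of Wnt4 without BRD0705/PD03 replicate 1, 2i replicate 1 or 2i replicate 3 (0.0552, 0.0638 and 0.0522). All ligands together held 17.4 to 19.2 CPM in BRD0705/PD03 and 9.14 to 10.6 CPM in 2i. Of 3 genes for Wnt secretion and modification, Porcn (1.26 ± 0.16) and Wls (0.85 ± 0.15) were higher, and Notum, which strips the lipid from Wnt proteins, was lower (-1.0 ± 0.06). Of 5 other ligand genes, 3 were tested, and the R-spondin genes Rspo1 (2.36 ± 0.29) and Rspo3 (1.59 ± 0.24) were higher, at no more than 3.26 CPM in any library. Porcn lost its call (0.74, adjusted p = 0.328), Wls turned to -0.09 (adjusted p = 0.827) and Rspo3 to -0.17 (adjusted p = 0.915) with the fibroblast marker covariate. Wnt9a (0.24, adjusted p = 0.855) and Wnt4 (0.64, adjusted p = 0.486) also lost their calls with that covariate.

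Secreted antagonists, some of which carry a Frizzled-like domain that binds Wnt proteins, were 4 higher and 1 lower of 6 tested, with 13 listed. Sfrp2 stood at 12.7 ± 1.0 CPM in BRD0705/PD03 and 1.33 ± 0.157 CPM in 2i, Dkk2, a ligand of Lrp5 and Lrp6, at 3.47 ± 0.43 and 0.832 ± 0.376 CPM, and Sfrp4 rose by 1.01. With the covariate, Dkk2 (1.52, adjusted p = 0.122) and Sfrp4 (0.73, adjusted p = 0.544) lost their calls. Sfrp1 was lower at 119 ± 3.74 CPM in BRD0705/PD03 against 131 ± 2.03 CPM in 2i. That call was lost with upper-quartile factors (-0.07, adjusted p = 0.0755), without a filter on low counts (-0.11, adjusted p = 0.0646) and with the covariate (-0.30, adjusted p = 0.151). Of 12 genes acting at the inner face of the receptors, 3 were higher and 5 lower (median -0.14). Axin1 fell by 0.38, Dvl3, a Dishevelled gene, by 0.64, Gsk3a by 0.32 and Gipc1 by 0.34 on the log2 scale. With the covariate, Dvl3 (-0.77, adjusted p = 0.0971), Gsk3a (-0.17, adjusted p = 0.57) and Gipc1 (-0.44, adjusted p = 0.134) lost their calls. The estimates of Dvl3 and Gipc1 did not shrink, and that of Gsk3a did. Over all companion lists, planar cell polarity genes and other LDL receptor relatives included, 31 of 73 tested genes were higher and 25 lower, so that 76.7% were called, against 61.4% of all genes. The lists were chosen with earlier results of these data known, and some genes, such as Wnt3 and Wnt8a, passed the filter through 1 group alone. The difference between these shares is therefore not a test. With the covariate 12 of the companion genes were higher and 15 lower.

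The genes whose profile over the 6 libraries was most like that of Fzd7 were Efnb2, Emb and Cdh3, by the root mean square difference of centred log2(CPM + 0.5) values, at 0.0471, 0.0486 and 0.0519 among 10231 candidates. Efnb2 stood at 67.4 ± 2.02 CPM in BRD0705/PD03 and 10.4 ± 0.292 CPM in 2i. For Fzd2 they were Trh, Arhgap29 and Nbea (0.0249, 0.0392 and 0.0436), and for Fzd1 they were Slc7a11, F3 and Snx7 (0.0415, 0.057 and 0.0578). With 2 groups of 3, this likeness mostly reflects the size of the difference between the media.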

How the data were processed

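The authors deposited 1 table per library with whole numbers for 53927 gene symbols. Per the submitters' processing notes the tool was Salmon (no version) and the build mm10, so the deposited values were taken as estimated counts, rounded and unscaled. Salmon shares out reads that match several genes. The annotation used is not stated in the labels.

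Groups and replicate numbers came from titles. All pairs of libraries of a group differed beyond sampling noise (chi-square per degree of freedom 2.77 to 9.84 over genes with at least 20 counts). Depths of 16968959 to 51180228 counts gave 34 to 6231 counts per member and library.

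The whole table was fitted with edgeR 4.0.16 in R 4.3.3 (filterByExpr, TMM, robust quasi-likelihood, group only, two-sided), with Benjamini-Hochberg adjustment over 20422 genes. The step was tested on simulated data at 2 kinds of dispersion. With dispersions from the fitted trend, false calls kept to the threshold's aim, and with gene-wise dispersions they exceeded it, so calls near 0.05 deserve caution. Far fewer genes were changed in the simulation than were called in the data, so its share of false calls cannot be carried over to these calls. Standard errors are the log2 fold change over the square root of F. CPM use effective library sizes, and exon lengths came from GENCODE M21, which 51951 symbols matched as 1 gene. DESeq2 1.42.0 was an alternative.

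Members, lists and the naming rule were chosen with earlier results of these data known. All members, Fzd9 and Fzd10 are named, and up to 4 genes of each list past the threshold with separate groups and a mean of 1 CPM or more, by smallest p. Named with their values known were Gm38058, Rnf43, Lgr5, Lgr6, Musk, Wnt6, Wnt8a, Tfap2c, Gata3, Pdgfra, Nes and Pax6. For likeness, candidates had a mean of at least 5 CPM and a gene name.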

Additional observations from a re-analysis of the deposited data

How the results depend on the processing

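Fzd7 (2.64 to 2.72) and Fzd2 (1.98, with the fibroblast marker covariate, to 2.44) kept their calls under all 16 alternatives run. Tested against a fold of 1.5, 2 members were higher and 0 lower, Fzd7 and Fzd2 alone. Fzd4 (0.47), Fzd6 (0.42), Lrp5 (-0.40) and Lrp6 (-0.13) lie under that fold and lost the call by construction, since a stricter question was asked. Fzd1 (0.68) lies above that fold and also lost the call (adjusted p = 0.353 by edgeR), which was not fixed in advance. With the covariate, 2 were higher and 0 lower, Fzd1 (-0.08), Fzd4 (-0.51) and Fzd5 (-0.06) reversed and Fzd6 (0.84), Lrp5 (-0.34) and Lrp6 (-0.23) lost the call, with larger standard errors; Wls (-0.09) and Rspo3 (-0.17) reversed too. All genes called numbered 6138 higher and 6406 lower as reported, 2498 and 2596 against a fold of 1.5, and 1840 and 2494 with the covariate. With upper-quartile factors 1 member was lower (Lrp5; Lrp6 at -0.07 was not called), which moved the median of all genes by 0.07, and only 1 without a filter on low counts (Lrp6 -0.11). Fzd4 lost the call by DESeq2 (0.48) and with libraries thinned to 16968959 counts (0.48), where Fzd3, never called, turned to 0.04. The cause of these losses was not tested beyond what is stated. Leaving out 1 library at a time gave ranges of 0.37 to 0.61 for Fzd4, -0.12 to 0.01 for Fzd3, with 0.01 without 2i replicate 2, and -0.14 to -0.09 for Lrp6, and the calls of Fzd1, Fzd6, Lrp5 and Lrp6 held. Same-numbered libraries deviated with correlations of -0.0753 to 0.0994 over 16043 genes, so the numbers were not taken as pairs; with the replicate number as a block, Fzd7 stood at 2.66, Fzd4 at 0.48 and Lrp6 at -0.13, and no member's call changed. Per length of the longest transcript, the share of Fzd6 was 3.89% in BRD0705/PD03 and 7.53% in 2i, and that of Fzd8 in 2i 4.01%. The called genes of the companion lists numbered 31 higher and 25 lower as reported, 12 and 15 with the covariate, 20 and 10 against a fold of 1.5, 29 and 25 by DESeq2 and 32 and 25 with the block. Depth limits Fzd4, Fzd2 and Fzd1 most, with as few as 34, 46 and 47 counts in a library.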

Other observations

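Core genes of planar cell polarity, the pathway that Fzd3 and Fzd6 serve in tissues, differed in both directions. Of 7 tested, 3 were higher and 4 lower in BRD0705/PD03, where 61.4% of all genes were called in either direction. Celsr3 stood at 20.4 ± 1.29 CPM in BRD0705/PD03 and 4.59 ± 0.44 CPM in 2i, while its relative Celsr1 stood at 31.8 ± 0.514 and 85.1 ± 1.78 CPM. Vangl1 stood at 36.9 ± 1.04 CPM in BRD0705/PD03 and 108 ± 2.37 CPM in 2i, and Prickle2 fell by 1.26 on the log2 scale.

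Among 11 other members of the LDL receptor family, 3 were higher and 6 lower, beside 30.1% higher and 31.4% lower over all genes. Lrp2, a large endocytic receptor, stood at 239, 229 and 207 CPM in BRD0705/PD03 and 24.0, 23.7 and 22.8 CPM in 2i (3.26 ± 0.06, adjusted p = 8.7e-18 by edgeR). It had a larger log2 fold change than any of the 10 Frizzled and Lrp genes described above. Lrp8 fell by 0.98, Lrp12 by 0.72 and Lrp11 by 0.64 on the log2 scale. With the fibroblast marker covariate, the calls of Lrp8 (-0.56, adjusted p = 0.0846) and Lrp11 (-0.40, adjusted p = 0.179) were lost.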
